A study of Mus musculus with 8 samples.

Results

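The 57 genes described here are interferon-stimulated genes of the mouse, chosen by symbol from lists of such genes without the Gbp and Ifi200 families. They cover signalling and transcription factors, sensors of RNA and DNA, the IFIT and OAS families, other antiviral effectors, the ISG15, ubiquitin and ADP-ribose enzymes, the IRG family of GTPases and the Schlafen family. Of the 57, 55 had a row in the count table of 31815 genes, and 53 were abundant enough to be among the 13329 genes tested. Mx1 and Mx2 had no row and were not analysed here. Ifi44 (0 to 7 counts in any library) and Oas2 (0 to 10 counts) had rows but were too low to test. The choice rests on symbols, but it was made with earlier results of these data known.

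The cells were splenic CD8 T cells of OT-I mice (C57BL/6-Tg(TcraTcrb)1100Mjb/J), whose T cells carry 1 transgenic receptor for an ovalbumin peptide. All groups shared the same start: sorted naive CD3+CD8+ cells were exposed to the peptide for 3 days, received a vector at 24 h and were sorted again on day 5. The vector encoded TOXFL, the full-length form of the HMG-box protein TOX, or TOXdeltaN, and GFP from an internal ribosome entry site in the same transcript. The 4 groups of 2 libraries each were TOXFL-negative (no GFP), TOXFL-positive (the brightest 20% by GFP), TOXdeltaN-negative and TOXdeltaN-positive. Cells with a vector for GFP alone were not analysed here, so an effect of the TOX protein and one of carrying a vector or expressing GFP cannot be told apart. Separate mice or cultures are not named in the labels for the 2 libraries of each group. The p-values therefore cover the spread among these 8 libraries alone, and that spread may be technical.

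Total counts lay between 25059112 and 31240067 per library. Tox itself had 21.8 to 34.4 CPM (counts scaled to a common library total) without GFP against 82.9 to 126 CPM with GFP, so each library matched its label for GFP. TOXFL-positive and TOXdeltaN-positive libraries overlapped in Tox, and the construct was not checked by this value. All 8 T cell markers of the CD8 list were tested, with a summed level of 3827 to 3993 CPM in GFP-negative and 3578 to 4097 CPM in GFP-positive libraries. The 2 libraries of a group differed least in TOXFL-negative cells (chi-square divided by its degrees of freedom 11.44) and most in TOXdeltaN-positive cells (39.67).

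Interferons are secreted proteins that bind cell surface receptors and act through the JAK kinases and STAT proteins. Type I interferons act on IFNAR and assemble a complex of STAT proteins and IRF9 that binds the interferon-stimulated response element (ISRE), while interferon gamma acts on IFNGR and leads STAT dimers to the gamma-activated site (GAS). The induced genes encode proteins that detect, degrade or block foreign nucleic acids, that attack the vacuoles of intracellular parasites, or that amplify and restrain the signal itself. T cells carry both receptors and keep many of these genes at a basal level.

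Both elements stand side by side in the promoters of several IRG GTPase genes. RefSeq promoter windows (build GRCm38.p6, 250 bases before to 50 bases after a gene's start) were found for 46 of the 57 genes. Both strands were searched for GAAA, any 2 bases and GAAA again as the ISRE, and for TTC, any 3 bases and GAA as the GAS. In 4 of the 7 IRG genes, both were found on the gene's strand with 2 bases between them. Iigp1 is in none of the promoter classes given further below, so it is not counted as lacking the pair. The 4 stretches are shown, on the gene's strand from 5′ to 3′, with both elements in capitals:
Tgtp1: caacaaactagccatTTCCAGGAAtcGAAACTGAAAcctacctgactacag
Tgtp2: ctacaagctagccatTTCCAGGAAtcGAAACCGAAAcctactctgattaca
Igtp: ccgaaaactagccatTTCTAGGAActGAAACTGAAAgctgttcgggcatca
Irgm2: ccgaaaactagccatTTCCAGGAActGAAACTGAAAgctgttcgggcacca

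The Tgtp1 stretch lies at chr11:48992299-48992349 and the Tgtp2 stretch at chr11:49064258-49064308, both on the minus strand, and their GAS begins 88 and 81 bases before the RefSeq start. The Igtp stretch lies at chr11:58199496-58199546 and the Irgm2 stretch at chr11:58214887-58214937, both on the plus strand, 45 and 75 bases before the start. In GENCODE M21 none of the 4 touches an exon, and those of Tgtp1 and Irgm2 lie inside introns of longer models of these genes. Those of Tgtp1 and Tgtp2 also lie inside the annotated gene Olfr56. Single elements are shown for 3 genes whose levels fell, with the element in capitals:
Samhd1: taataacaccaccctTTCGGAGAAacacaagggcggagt
Slfn8: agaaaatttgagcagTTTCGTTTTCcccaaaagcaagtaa
Ifit1: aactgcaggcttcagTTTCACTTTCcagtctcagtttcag

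These are a GAS of Samhd1 at chr2:157135308-157135346, an ISRE on the opposite strand of Slfn8 at chr11:83020834-83020873, and the first of the pair of ISRE matches of Ifit1 at chr19:34640770-34640809. The ISRE letters were present in 23 of the 46 member promoters (50%) and in 3.99% of the promoters of all 27025 genes in the table. The GAS letters were present in 14 of the 46 (30.4%) and in 9.55% of all, and both in 8 (17.4%) and in 0.54%. The patterns can overlap, as 1 pair of matches does in Bst2. A match is a run of letters and was not tested as a binding site, and Slfn1, for one, held neither.

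Across the 53 tested genes, GFP-positive cells of both kinds had lower levels than GFP-negative cells. The summed level of the 55 genes with a row was 7656 and 6700 CPM in TOXFL-negative, 6344 and 5565 CPM in TOXFL-positive, 7484 and 6360 CPM in TOXdeltaN-negative and 6080 and 5003 CPM in TOXdeltaN-positive libraries, so that all 4 positive libraries lay below all 4 negative ones. With TOXFL, 48 of the 53 genes had a log2 fold change below 0 and the median was -0.29, against a median of -0.0030 over all tested genes. With TOXdeltaN, 46 were below 0 and the median was -0.34, against 0.0054. The fold change was below 0 with both constructs for 45 genes and above 0 with both for 4. The 4 were Nmi, Ifi35, Dhx58 and Bst2. In bulk RNA, fewer cells of a kind and less RNA per cell cannot be told apart.

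**Figure D1:**
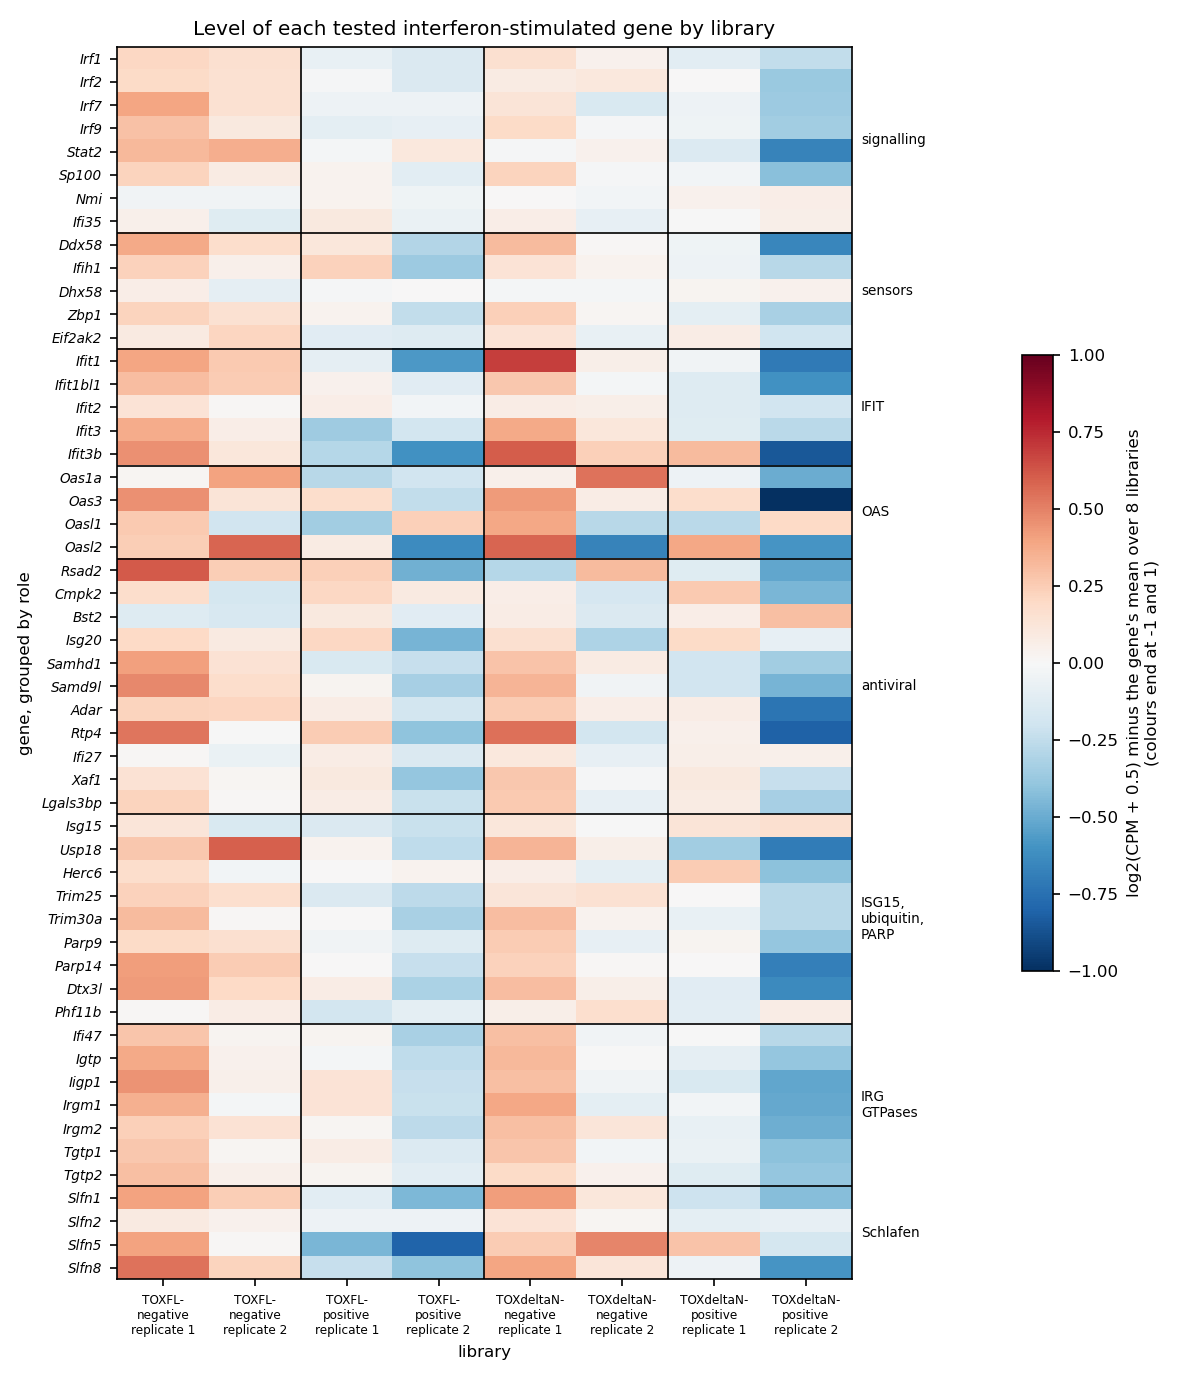
Levels of the 53 tested genes in the 8 libraries, as log2(CPM + 0.5) minus the gene's mean over the libraries, with genes grouped by role and libraries by group. The 2 columns of each GFP-positive group are bluer (lower) than those of the GFP-negative group beside them for most genes, and the right column of each group (replicate 2) is mostly bluer than the left.

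Few of these changes passed a test in each construct alone. One edgeR fit held no term for the replicate number (the unblocked edgeR fit). In it, 0 of the 53 genes passed an adjusted p of 0.05 as lower with TOXFL (0.03% of all tested genes did), and 0 with TOXdeltaN (0.0225%). At an unadjusted p under 0.05, 12 were lower with TOXFL (background 7.17%) and 21 with TOXdeltaN (background 6.19%), and none was higher. DESeq2 called 3 of the 52 genes it gave an adjusted p as lower with TOXFL (background 1.45%) and 2 of 52 with TOXdeltaN (background 0.481%). Libraries with the same replicate number deviated together from their group means in all 6 pairs of groups, so a second fit holds a term for that number (the blocked fit), and its value stands beside each result that it changed. The blocked fit called 7 of the 53 genes lower with TOXFL (background 1.97%) and 13 with TOXdeltaN (background 0.878%), and none higher with either. Of the 53 genes, 6 passed with both constructs in that fit: Samhd1, Samd9l, Dtx3l, Igtp, Slfn1 and Slfn8. These single-construct counts rested on few libraries. The TOXFL count of 7 became 0 without either TOXFL-negative library or TOXFL-positive 2, 1 without TOXFL-positive 1, 2 without either TOXdeltaN-negative library, and 27 and 28 without TOXdeltaN-positive 1 and 2. The TOXdeltaN count of 13 became 0 without either TOXdeltaN-negative library, 1 without either TOXFL-negative library, 5 without either TOXFL-positive library, and 30 and 11 without TOXdeltaN-positive 1 and 2.

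The average of both construct effects uses all 8 libraries. In the unblocked edgeR fit it called 3 of the 53 genes lower, Samhd1, Slfn1 and Slfn8 (background 1.08%), and 31 at an unadjusted p under 0.05 (background 11.3%). With the block it called 31 of 53 lower (background 6.69%), and 0 higher. DESeq2 and an edgeR fit with no filter on low counts, both without the block, called more of the 53 than the unblocked edgeR fit. Leaving out single libraries moved the unblocked count of 3 to 0 without TOXFL-negative 1, TOXFL-positive 2, TOXdeltaN-negative 1 or TOXdeltaN-negative 2, to 1 without TOXFL-negative 2 or TOXFL-positive 1, to 2 without TOXdeltaN-positive 2 and to 28 without TOXdeltaN-positive 1. The blocked count of 31 became 8 and 10 without TOXdeltaN-negative 2 and 1, 13 and 19 without TOXFL-negative 2 and 1, 19 and 25 without TOXFL-positive 1 and 2, and 35 and 32 without TOXdeltaN-positive 1 and 2. In the blocked average fit, 7 genes were called in all 8 omissions: Samhd1, Samd9l, Dtx3l, Igtp, Iigp1, Slfn1 and Slfn8. Each of the other calls was lost without at least 1 of the TOXdeltaN-negative libraries.

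**Figure D2:**
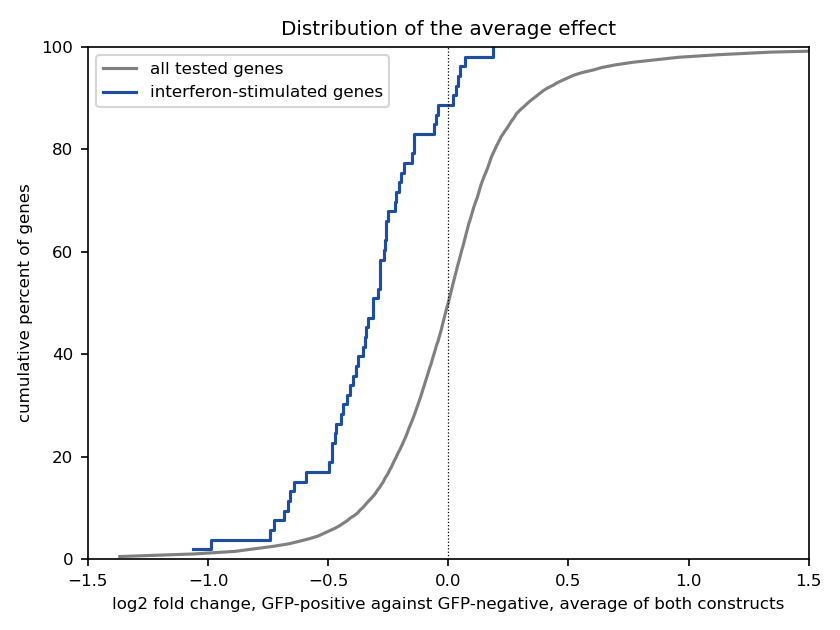
Cumulative percentage of genes (vertical axis) against the log2 fold change of GFP-positive against GFP-negative cells, averaged over both constructs (horizontal axis), without the block. The blue steps of the 53 interferon-stimulated genes lie to the left of the grey line of the 13329 tested genes, with medians of -0.31 and -0.0005, and 47 of the 53 lie left of 0.

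The pathway above these genes was read from lists that hold none of them. Of 10 interferon ligand genes, 7 had no count in any library, Ifnb1 and Ifnl3 had at most 2, and Ifng alone was tested. Ifng, the interferon that activated CD8 T cells make, was at 4.47 and 3.205 CPM in TOXFL-negative, 4.91 and 3.95 CPM in TOXFL-positive, 4.41 and 5.24 CPM in TOXdeltaN-negative and 4.03 and 7.315 CPM in TOXdeltaN-positive libraries. Its libraries overlapped between GFP-positive and GFP-negative cells, with log2 fold changes of 0.21 and 0.23 that did not pass (91 to 183 counts).

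Among the 7 receptor and kinase genes, Ifngr1, the ligand-binding chain of the interferon gamma receptor, stood at 963 and 943 CPM in TOXFL-negative, 764 and 801 CPM in TOXFL-positive, 976 and 957.5 CPM in TOXdeltaN-negative and 735 and 769 CPM in TOXdeltaN-positive libraries. All 4 positive libraries lay below all 4 negative ones, and on average Ifngr1 fell by 0.32 on the log2 scale in the unblocked fit (edgeR adjusted p = 0.0257). With TOXdeltaN alone it fell by 0.36 in the blocked fit (adjusted p = 0.0391), and with TOXFL the blocked value was -0.28 (adjusted p = 0.0553). Jak1, the kinase that both receptors use, was at 1147 and 1109 CPM in TOXFL-negative, 959 and 935 CPM in TOXFL-positive, 1139 and 1033 CPM in TOXdeltaN-negative and 966 and 710.1 CPM in TOXdeltaN-positive libraries. Positive lay below negative within each construct. Jak1 fell by 0.32 on average in the blocked fit (adjusted p = 0.0175) and did not pass in the unblocked edgeR fit. Ifnar1, Ifnar2, Ifngr2, Jak2 and Tyk2 did not pass in the unblocked or the blocked edgeR fit of either construct or the average. Their average log2 fold changes lay between -0.20 and 0.0073.

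None of the 12 feedback regulators, among them Socs1 and Socs3, passed in either construct or on average in the unblocked or the blocked edgeR fit. Their median log2 fold change was 0.0423 with TOXFL and 0.0171 with TOXdeltaN.

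Of the 7 other IRF genes, 3 were called higher with TOXFL in the blocked fit, 1 with TOXdeltaN and 3 on average. Over all 13329 tested genes, 201, 103 and 805 were called higher in the same order. Irf5, which drives inflammatory genes in myeloid and B cells, was at 9.1 and 13.1 CPM in TOXFL-negative, 16.8 and 26.2 CPM in TOXFL-positive, 10.5 and 14.6 CPM in TOXdeltaN-negative and 14.7 and 30.8 CPM in TOXdeltaN-positive libraries, and the positive library was above the negative one of the same construct and number in all 4 pairs. In the blocked fit Irf5 rose by 0.94 with TOXFL (adjusted p = 0.0127) and by 0.80 with TOXdeltaN (adjusted p = 0.0391). Irf8, a factor of myeloid development that T cells also induce, at 81.2 and 116 CPM in TOXFL-negative, 119 and 156 CPM in TOXFL-positive, 90.5 and 137 CPM in TOXdeltaN-negative and 118 and 182 CPM in TOXdeltaN-positive libraries, rose by 0.49 with TOXFL in that fit (adjusted p = 0.0168), and its value with TOXdeltaN was 0.40 (adjusted p = 0.0559). Irf2bp2, a corepressor that binds IRF2, was at 71.2 and 103 CPM in TOXFL-negative, 154 and 203 CPM in TOXFL-positive, 157.5 and 155 CPM in TOXdeltaN-negative and 170 and 131 CPM in TOXdeltaN-positive libraries. Only its TOXFL groups stood apart, and the 2 TOXFL-negative libraries were its lowest. Both TOXdeltaN-negative libraries lay between the 2 TOXFL-positive ones. In the blocked fit the value of Irf2bp2 was 1.04 with TOXFL (adjusted p = 0.0146) and -0.05 with TOXdeltaN. The difference between the constructs did not pass for any of the 3, and none of the 3 passed in the unblocked edgeR fit. Among 11 tested genes of nucleic acid sensing outside the members, only the kinase gene Ikbke passed in the unblocked or the blocked edgeR fit. Its value was -0.26 on average in the blocked fit (adjusted p = 0.0158), where 6.69% of all tested genes were called lower.

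Of the 8 signalling and transcription factor genes, 6 were called lower on average in the blocked fit (background 6.69%). None passed with a single construct in that fit, and none passed in the unblocked edgeR fit. Irf1, the interferon gamma-induced activator of many of these genes, was at 304.5 and 295 CPM without against 251 and 239 CPM with TOXFL, and 296 and 272.5 CPM without against 245 and 223 CPM with TOXdeltaN. All 4 positive libraries lay below all 4 negative ones, and the average fell by 0.29 (SE 0.0532) on the log2 scale (blocked adjusted p = 0.00883, unblocked 0.0554). Irf2, which binds the same sites as IRF1 and can oppose it, was at 110.4 and 107.5 CPM without against 95.7 and 87.4 CPM with TOXFL, and 102 and 104 CPM without against 96.85 and 74.4 CPM with TOXdeltaN, again with no overlap, and fell by 0.26 (SE 0.0736, blocked adjusted p = 0.0434).

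Irf9, the DNA-binding part of the complex on the ISRE, was at 112 and 98.15 CPM without against 85.5 and 86.7 CPM with TOXFL, and 105 and 91 CPM without against 89 and 72 CPM with TOXdeltaN. No positive library reached a negative one, and the average fell by 0.28 (SE 0.0669, blocked adjusted p = 0.0246). Stat2, its partner, was at 80.9 and 82.7 CPM without against 63.5 and 69.2 CPM with TOXFL, and 63.75 and 66.4 CPM without against 58.5 and 40.4 CPM with TOXdeltaN. The positive libraries lay below the negative ones within each construct but TOXFL-positive 2 was above both TOXdeltaN-negative libraries. The average fell by 0.35 (SE 0.101, blocked adjusted p = 0.0477). Irf7, the factor that amplifies type I interferon, was at 61.4 and 51.8 CPM without against 45 and 45.1 CPM with TOXFL, and 51.1 and 41.9 CPM without against 45 and 36.2 CPM with TOXdeltaN. Its TOXFL libraries did not overlap, its TOXdeltaN libraries did, and the average fell by 0.26 (SE 0.0729, blocked adjusted p = 0.0447).

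Sp100, a component of nuclear bodies, was the most abundant gene of this group in CPM, at 541 and 491 CPM without against 477.5 and 433 CPM with TOXFL, and 542 and 462 CPM without against 457 and 348 CPM with TOXdeltaN. It did not overlap within either construct and fell by 0.25 (SE 0.0594) on average (blocked adjusted p = 0.0235). Nmi and Ifi35, which form a cytoplasmic complex, did not pass. Ifi35 was at 109.8 and 97.2 CPM without against 113 and 101 CPM with TOXFL, and 111 and 99.9 CPM without against 106 and 110.4 CPM with TOXdeltaN, with overlap in both constructs. Nmi lay between 78.1 and 84.2 CPM in all libraries. Their average log2 fold changes were 0.05 (SE 0.0613) and 0.04 (SE 0.075), and both TOXdeltaN-positive libraries of Nmi lay above the TOXdeltaN-negative ones.

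Of the 5 sensor genes, 2 were called lower on average in the blocked fit (background 6.69%). Ddx58, which encodes the RNA helicase RIG-I, was at 123.5 and 108 CPM in TOXFL-negative, 103 and 77.55 CPM in TOXFL-positive, 118 and 95.85 CPM in TOXdeltaN-negative and 92.2 and 60.3 CPM in TOXdeltaN-positive libraries. Positive libraries lay below negative ones within each construct, with TOXFL-positive 1 above TOXdeltaN-negative 2. In the blocked fit Ddx58 fell by 0.51 (SE 0.104) with TOXdeltaN (adjusted p = 0.0478), and its value with TOXFL was -0.37 (adjusted p = 0.0823). On average Ddx58 fell by 0.44 (SE 0.0736) in that fit (adjusted p = 0.00564). Zbp1, a sensor of Z-form nucleic acids, was at 102 and 97.1 CPM without against 89.4 and 73.6 CPM with TOXFL, and 103 and 88.4 CPM without against 81.65 and 69.8 CPM with TOXdeltaN, and fell by 0.32 (SE 0.061) on average (blocked adjusted p = 0.0104) with no overlap within a construct. Dhx58 encodes LGP2, a relative of RIG-I without its signalling domains. It was at 32.5 and 29.2 CPM without against 30.8 and 31.1 CPM with TOXFL, and 30.6 and 30.55 CPM without against 31.7 and 32 CPM with TOXdeltaN, close to level in all libraries. Ifih1 (MDA5) and Eif2ak2 (PKR, the kinase that halts translation) did not pass, with average values of -0.22 (SE 0.146) and -0.18 (SE 0.0931).

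The IFIT proteins bind the ends of foreign RNA and block its translation, and all 5 genes had fold changes below 0 with both constructs. Ifit1 was at 8.87 and 8.065 CPM in TOXFL-negative, 6.19 and 4.3 CPM in TOXFL-positive, 11 and 6.92 CPM in TOXdeltaN-negative and 6.46 and 3.88 CPM in TOXdeltaN-positive libraries. The 4 positive libraries lay below all 4 negative ones, and Ifit1 fell by 0.76 (SE 0.14) on average in the blocked fit (adjusted p = 0.00863). With TOXFL and TOXdeltaN alone its blocked values were -0.72 (adjusted p = 0.07675) and -0.79 (adjusted p = 0.0803). Its call was lost without TOXdeltaN-negative 1, the highest of its libraries.

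Ifit3 was at 12 and 9.65 CPM without against 7.07 and 8 CPM with TOXFL, and 12.1 and 10 CPM without against 8.41 and 7.515 CPM with TOXdeltaN, with no overlap, and fell by 0.49 (SE 0.118) on average (blocked adjusted p = 0.0257). Ifit1bl1, a relative of Ifit1, was at 18.7 and 18 CPM without against 15.5 and 13.8 CPM with TOXFL, and 18.2 and 14.8 CPM without against 13.7 and 9.67 CPM with TOXdeltaN and fell by 0.42 (SE 0.0961, blocked adjusted p = 0.0222), and its TOXFL-positive 1 lay above TOXdeltaN-negative 2. Ifit2, the most abundant of the family at 31.65 and 28.9 CPM without against 29.98 and 28.15 CPM with TOXFL, and 30.15 and 29.85 CPM without against 26.2 and 25.1 CPM with TOXdeltaN, did not pass, with an average of -0.14 (SE 0.0735). Ifit3b had 8 to 51 counts per library, at 1.53 and 1.09 CPM without against 0.711 and 0.471 CPM with TOXFL, and 1.745 and 1.24 CPM without against 1.33 and 0.32 CPM with TOXdeltaN, and its fold changes of -1.15 and -0.83 had standard errors of 0.644 and 0.628. Of the 50-base stretches of Ifit3, 51.2% also occur in Ifit3b, so the division of reads between this pair is uncertain.

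The OAS enzymes make the oligoadenylates that switch on RNase L. None of the 4 tested genes passed in the unblocked or the blocked edgeR fit. Oas3, the only one above 3 CPM, was at 46.8 and 37.05 CPM without against 38.3 and 28.5 CPM with TOXFL, and 45.7 and 35.8 CPM without against 38.4 and 14.5 CPM with TOXdeltaN. Its libraries overlapped in both constructs, and TOXdeltaN-positive 2 was the lowest. The blocked average was -0.52 (SE 0.153, adjusted p = 0.0512). Oas1a, at 1.53 and 2.15 CPM without against 1.15 and 1.255 CPM with TOXFL, and 1.57 and 2.42 CPM without against 1.435 and 0.919 CPM with TOXdeltaN, showed no overlap between positive and negative libraries, and its unblocked values were -0.61 (SE 0.425) with TOXFL and -0.75 (SE 0.426) with TOXdeltaN. Of its 50-base stretches, 57.6% are shared with other genes, mostly Oas1g. The OAS-like gene Oasl2, at 0.82 and 1.16 CPM without against 0.677 and 0.22 CPM with TOXFL, and 1.16 and 0.201 CPM without against 0.957 and 0.24 CPM with TOXdeltaN, did not overlap with TOXFL and overlapped with TOXdeltaN, with unblocked values of -1.15 (SE 0.9145) and -0.17 (SE 0.9105). Oasl1, a translational repressor of Irf7, had 5 to 18 counts per library with an average of -0.22 (SE 0.601).

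Of the 11 other antiviral effectors tested, 5 were called lower on average in the blocked fit (background 6.69%). Samhd1 alone passed in the unblocked edgeR fit. Samhd1 encodes the enzyme that hydrolyses deoxynucleotides and so limits reverse transcription, and it lies at chr2:157097533-157135265 on the minus strand (GENCODE M21, GRCm38, as for the genes that follow). Its level was 765 and 638 CPM in TOXFL-negative, 517.5 and 489.5 CPM in TOXFL-positive, 703 and 608 CPM in TOXdeltaN-negative and 504 and 452 CPM in TOXdeltaN-positive libraries. Every positive library lay below every negative one, with the highest positive at 517.5 and the lowest negative at 608 CPM. Samhd1 fell by 0.47 (SE 0.0819) on average in the unblocked fit (adjusted p = 0.0257). The unblocked call was lost without TOXFL-negative 1, either TOXFL-positive library or either TOXdeltaN-negative library (adjusted p up to 0.1604). In the blocked fit it fell by 0.47 (SE 0.0749) with TOXFL (adjusted p = 0.0116) and by 0.45 (SE 0.0749) with TOXdeltaN (adjusted p = 0.0271).

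Samd9l, a brake on cell growth and viral translation, was at 85 and 68.9 CPM in TOXFL-negative, 62.1 and 48.4 CPM in TOXFL-positive, 77.1 and 59.4 CPM in TOXdeltaN-negative and 53.3 and 43.9 CPM in TOXdeltaN-positive libraries. Positive libraries lay below negative ones within each construct, while TOXFL-positive 1 stood above TOXdeltaN-negative 2. It fell in the blocked fit by 0.48 (SE 0.0842) with TOXFL (adjusted p = 0.0154) and by 0.48 (SE 0.0849) with TOXdeltaN (adjusted p = 0.0324). Rtp4, a chaperone of membrane receptors, was at 30.9 and 21.1 CPM in TOXFL-negative, 25.3 and 15.9 CPM in TOXFL-positive, 31.2 and 18.5 CPM in TOXdeltaN-negative and 21.8 and 11.8 CPM in TOXdeltaN-positive libraries. Its libraries overlapped in both constructs, and replicate 2 was lower than replicate 1 in every group. The blocked fit called it with TOXdeltaN, where it fell by 0.57 (SE 0.117, adjusted p = 0.0473), and the unblocked edgeR fit did not.

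Adar, the editor of double-stranded RNA, was at 193 and 192 CPM without against 173 and 145 CPM with TOXFL, and 197 and 172 CPM without against 174 and 99.49 CPM with TOXdeltaN. TOXdeltaN-positive 2 was by far the lowest, and the average fell by 0.38 (SE 0.108, blocked adjusted p = 0.0485). Lgals3bp, a secreted glycoprotein, was at 188 and 162 CPM without against 169 and 138 CPM with TOXFL, and 192 and 152 CPM without against 169.9 and 127.5 CPM with TOXdeltaN, with overlap in both constructs, and fell by 0.20 (SE 0.0582, blocked adjusted p = 0.0483). The other 6 tested effectors did not pass in the unblocked or the blocked edgeR fit of either construct or the average. Bst2, which tethers budding virions to the cell, had the highest fold changes of the 53 genes in the unblocked fit, 0.15 (SE 0.126) with TOXFL and 0.22 (SE 0.125) with TOXdeltaN. Ifi27, which encodes a small mitochondrial protein, the nucleotide kinase gene Cmpk2 and the exonuclease gene Isg20 had averages of 0.02, 0.07 and -0.06, with Isg20 at 15.1 and 14 CPM without against 15.3 and 9.35 CPM with TOXFL, and 14.75 and 10.5 CPM without against 15.1 and 12.4 CPM with TOXdeltaN. Xaf1, whose protein opposes the apoptosis inhibitor XIAP, was at -0.20 (SE 0.1295). Rsad2, the gene of viperin, had 12 to 44 counts, at 1.64 and 1.16 CPM without against 1.15 and 0.502 CPM with TOXFL, and 0.65 and 1.24 CPM without against 0.786 and 0.48 CPM with TOXdeltaN, and its fold changes of -0.76 and -0.57 had standard errors of 0.576 and 0.595.

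**Figure D3:**
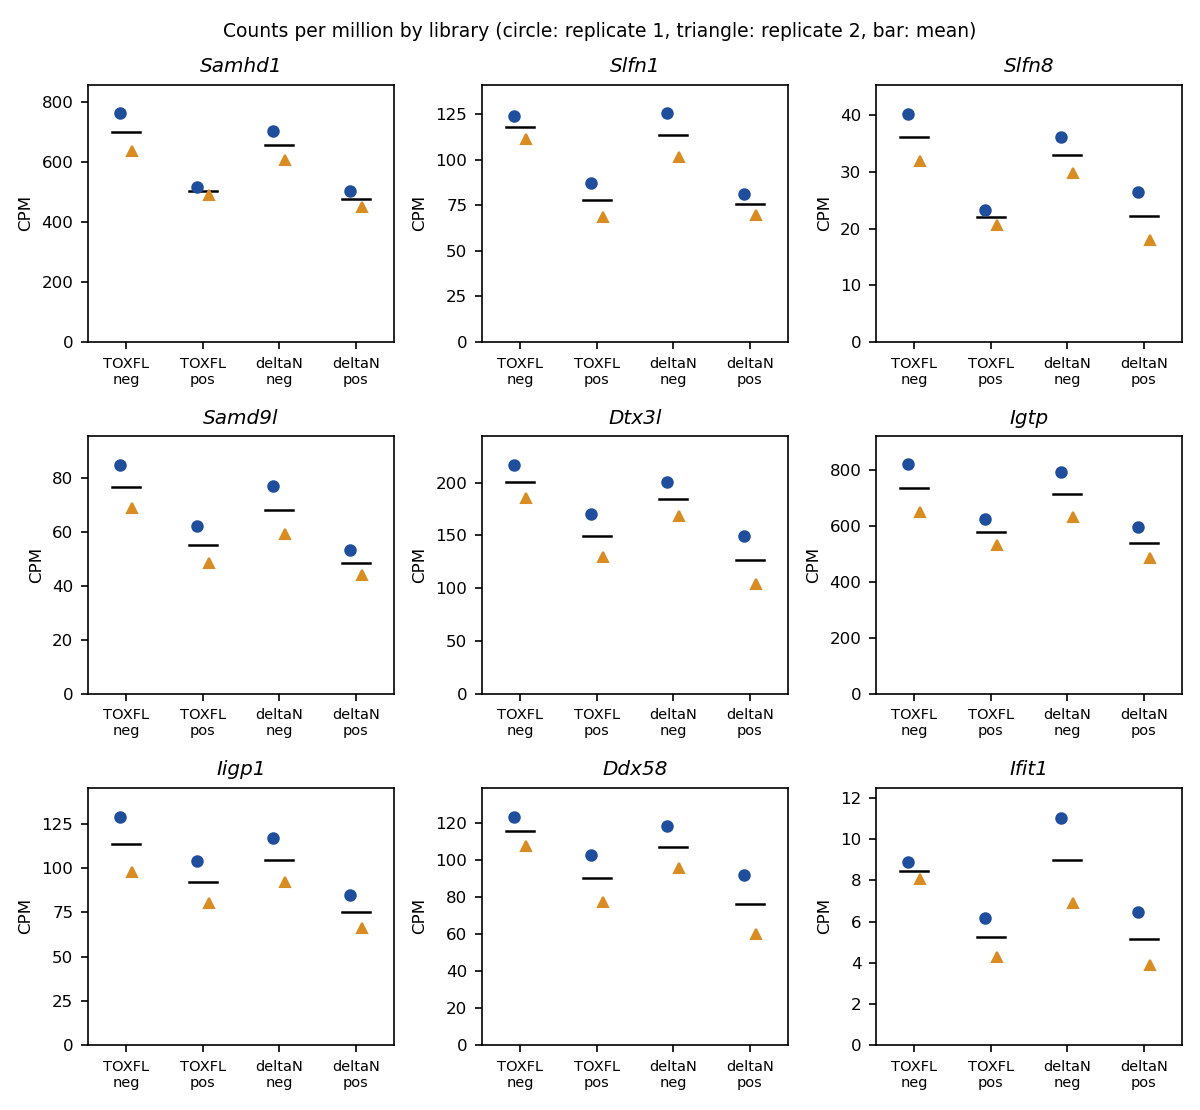
CPM of 9 genes in each library (vertical axes from 0; circles replicate 1, triangles replicate 2, bars the mean of the 2 libraries) by group. Samhd1, Slfn1, Slfn8, Igtp and Ifit1 have all 4 GFP-positive libraries below all 4 GFP-negative ones, and replicate 2 lies below replicate 1 in every group of all 9.

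Among the 9 genes of the ISG15, ubiquitin and ADP-ribose group, 6 were called lower on average in the blocked fit (background 6.69%), among them Dtx3l, Parp9 and Parp14. Dtx3l, a ubiquitin ligase that pairs with PARP9, was at 216 and 186 CPM in TOXFL-negative, 169.8 and 129.7 CPM in TOXFL-positive, 200.4 and 168 CPM in TOXdeltaN-negative and 149 and 103 CPM in TOXdeltaN-positive libraries. It did not overlap within a construct, and TOXFL-positive 1 lay just above TOXdeltaN-negative 2. Dtx3l fell in the blocked fit by 0.43 (SE 0.0928) with TOXFL (adjusted p = 0.0343) and by 0.56 (SE 0.09325) with TOXdeltaN (adjusted p = 0.0276). Parp9, at 155 and 151 CPM without against 132 and 124 CPM with TOXFL, and 161 and 128 CPM without against 138 and 103 CPM with TOXdeltaN, fell by 0.26 (SE 0.0744) on average (blocked adjusted p = 0.0451). Its TOXdeltaN libraries overlapped. Parp14, which adds single ADP-ribose units, was at 139 and 125 CPM without against 104 and 88.5 CPM with TOXFL, and 122 and 105 CPM without against 104 and 64.55 CPM with TOXdeltaN and, with no overlap, fell by 0.45 (SE 0.087, blocked adjusted p = 0.01015). Parp9 and Dtx3l lie side by side on chromosome 16 and overlap at their starts, from opposite strands, so that unstranded reads there cannot be divided between them.

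Trim25, the ubiquitin ligase that activates RIG-I, was at 115 and 109.9 CPM without against 88.7 and 81.5 CPM with TOXFL, and 107 and 109 CPM without against 98.2 and 80.7 CPM with TOXdeltaN. No positive library reached a negative one, and in the blocked fit Trim25 fell by 0.40 (SE 0.0935) with TOXFL (adjusted p = 0.0475), with -0.28 (adjusted p = 0.154) for TOXdeltaN. Trim30a, a TRIM protein of mice, was at 79.15 and 63.8 CPM without against 63.55 and 50.5 CPM with TOXFL, and 78.9 and 65.2 CPM without against 60.3 and 52.2 CPM with TOXdeltaN and fell by 0.34 (SE 0.0599) on average (blocked adjusted p = 0.00698). Usp18, which removes ISG15 from proteins and restrains the type I receptor, was at 4.32 and 5.53 CPM without against 3.59 and 2.86 CPM with TOXFL, and 4.55 and 3.66 CPM without against 2.63 and 1.96 CPM with TOXdeltaN. All positive libraries lay below all negative ones, on 49 to 157 counts, and the average fell by 0.73 (SE 0.195, blocked adjusted p = 0.037).

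Isg15 itself, the ubiquitin-like modifier and one of the best known interferon-induced genes, did not pass. Its level was 5.145 and 4.19 CPM in TOXFL-negative, 4.2 and 3.95 CPM in TOXFL-positive, 5.13 and 4.7 CPM in TOXdeltaN-negative and 5.195 and 5.32 CPM in TOXdeltaN-positive libraries. The libraries overlapped with TOXFL, both TOXdeltaN-positive libraries lay above both TOXdeltaN-negative ones, and the average log2 fold change was -0.05 (SE 0.158, adjusted p = 0.888). Herc6, the main ISG15 ligase in mice, had an average of -0.04 (SE 0.135) and Phf11b, a PHD finger gene, of -0.15 (SE 0.0714), and neither passed.

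The IRG GTPases, which interferon gamma induces and which assemble on the vacuoles of parasites, held 4 of the 5 highest levels per length. Per kilobase of exon, Igtp had the highest mean level of all 55 genes at 318 CPM per kb, followed by Slfn2 at 248.5, Ifi47 at 203, Tgtp2 at 141 and Tgtp1 at 127. The blocked fit called all 7 genes lower on average (background 6.69%). It called 6 of them lower with TOXdeltaN (background 0.878%) and 1 with TOXFL (background 1.97%). None passed in the unblocked edgeR fit. Whether the effect differed between constructs was tested for each and did not pass (the differences of the 7 ran from -0.02 for Ifi47 to 0.21 for Irgm1, SE 0.303, TOXFL minus TOXdeltaN).

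Igtp, a regulator of the other IRG proteins, lies at chr11:58199556-58207591. Its level was 822 and 652 CPM in TOXFL-negative, 627 and 531 CPM in TOXFL-positive, 794 and 633 CPM in TOXdeltaN-negative and 596 and 486 CPM in TOXdeltaN-positive libraries. All 4 positive libraries lay below all 4 negative ones, although TOXFL-positive 1 and TOXdeltaN-negative 2 were almost equal. Igtp fell in the blocked fit by 0.34 (SE 0.0699) with TOXFL (adjusted p = 0.0286) and by 0.40 (SE 0.0699) with TOXdeltaN (adjusted p = 0.0324).

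Irgm2, a second regulator, was at 95.5 and 89.2 CPM without against 81.8 and 67.1 CPM with TOXFL, and 99.6 and 87.9 CPM without against 76.7 and 57.2 CPM with TOXdeltaN. It showed no overlap and fell by 0.49 (SE 0.0962) with TOXdeltaN (blocked adjusted p = 0.041), with -0.32 (adjusted p = 0.102) for TOXFL. The annotated Irgm2 gene overlaps Igtp on the same strand, and 12.3% of the 50-base stretches of Igtp are shared with other genes, so reads of this pair may be divided wrongly. Irgm1, the third regulator, was at 252 and 194 CPM without against 217 and 168 CPM with TOXFL, and 258 and 184 CPM without against 194 and 138 CPM with TOXdeltaN. Its libraries overlapped in both constructs, with replicate 2 below replicate 1 in every group, and it fell by 0.42 (SE 0.0795) with TOXdeltaN in the blocked fit (adjusted p = 0.0391).

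Iigp1, an effector that coats vacuoles, was at 129 and 97.8 CPM without against 104 and 80.4 CPM with TOXFL, and 117 and 92 CPM without against 84.8 and 65.9 CPM with TOXdeltaN. Its TOXFL libraries overlapped and its TOXdeltaN libraries did not, and it fell by 0.47 (SE 0.0792) with TOXdeltaN (blocked adjusted p = 0.0285), with -0.30 (adjusted p = 0.07) for TOXFL. Ifi47, a further IRG effector, was at 602 and 506 CPM without against 508 and 397.5 CPM with TOXFL, and 613 and 485 CPM without against 496 and 411 CPM with TOXdeltaN, overlapped in both constructs and fell by 0.28 (SE 0.051) on average (blocked adjusted p = 0.00743).

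Tgtp1, an effector, was at 485 and 408 CPM without against 424 and 367 CPM with TOXFL, and 488 and 394 CPM without against 385 and 302 CPM with TOXdeltaN, and its near copy Tgtp2 at 504 and 424 CPM without against 418.5 and 381 CPM with TOXFL, and 468 and 423 CPM without against 376 and 313 CPM with TOXdeltaN. These neighbours share 89.4% of the 50-base stretches of Tgtp1, so the counts of the pair are best read together. With TOXdeltaN they fell by 0.36 (SE 0.075) and 0.37 (SE 0.0755) in the blocked fit (adjusted p = 0.0478 and 0.0461), with no overlap of positive and negative libraries. With TOXFL the blocked values were -0.17 and -0.21.

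The Schlafen family, named for its effect on the growth of T cells, held 2 of the 3 genes called on average in the unblocked edgeR fit. Slfn1 lies at chr11:83116849-83122670. It was at 124 and 112 CPM in TOXFL-negative, 87.3 and 68.8 CPM in TOXFL-positive, 126 and 101 CPM in TOXdeltaN-negative and 81.3 and 69.9 CPM in TOXdeltaN-positive libraries. The 4 positive libraries, from 68.8 to 87.3 CPM, lay below the 4 negative ones, from 101 to 126 CPM. Slfn1 fell by 0.59 (SE 0.1055) on average without the block (adjusted p = 0.0269), a call lost without either TOXFL-negative or TOXdeltaN-negative library or TOXFL-positive 2 (up to 0.159). In the blocked fit it fell by 0.60 (SE 0.0853) with TOXFL (adjusted p = 0.00805) and by 0.58 (SE 0.0855) with TOXdeltaN (adjusted p = 0.0154).

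Slfn8, a longer member with a helicase domain at chr11:83002158-83020810, was at 40.2 and 32 CPM in TOXFL-negative, 23.3 and 20.65 CPM in TOXFL-positive, 36.1 and 29.8 CPM in TOXdeltaN-negative and 26.4 and 18 CPM in TOXdeltaN-positive libraries. Again no positive library reached a negative one. Slfn8 fell by 0.64 (SE 0.136) on average without the block (adjusted p = 0.0451), a call kept without TOXdeltaN-positive 1 and lost in the other 7 omissions (up to 0.211). In the blocked fit it fell by 0.71 (SE 0.113) with TOXFL (adjusted p = 0.0116) and by 0.58 (SE 0.113) with TOXdeltaN (adjusted p = 0.041). Of its 50-base stretches, 15.4% are shared with other genes.

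Slfn2, which keeps T cells quiescent and was by far the most abundant of the family, was at 439.8 and 425 CPM without against 399 and 399 CPM with TOXFL, and 454 and 418 CPM without against 385.5 and 389 CPM with TOXdeltaN. Its 4 positive libraries also lay below the 4 negative ones, by a small step. The average of Slfn2 was -0.14 (SE 0.0586) and did not pass in the unblocked or the blocked edgeR fit. Slfn5, on 6 to 35 counts, had the lowest fold change of all 53 genes with TOXFL, -1.66 (SE 0.6). Its levels were 1.08 and 0.704 CPM without against 0.372 and 0.188 CPM with TOXFL, and 0.924 and 1.175 CPM without against 0.957 and 0.56 CPM with TOXdeltaN, with no overlap for TOXFL and overlap for TOXdeltaN. Neither the unblocked nor the blocked edgeR fit called it.

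The constructs were compared by the difference of their effects, TOXFL minus TOXdeltaN. None of the 53 genes passed in edgeR (0% of all tested genes) with or without the block, or in DESeq2, and at an unadjusted p under 0.05 none of the 53 was lower (background 1.53%) or higher. The median difference was 0.0104 on the log2 scale, with 24 of 53 below 0. The most negative in the unblocked fit was Slfn5 at -1.20 (SE 0.812), then Oasl2 at -0.98 (SE 1.29) and Isg20 at -0.37 (SE 0.343). With the block, Oasl2 was lowest at -1.37 (SE 1.06), before Slfn5 at -1.14 (SE 0.799). For the genes called with both constructs the differences were small against their errors, such as -0.02 (SE 0.1635) for Samhd1 and -0.01 (SE 0.21) for Slfn1. A missed threshold does not show that the constructs acted alike.

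**Figure D4:**
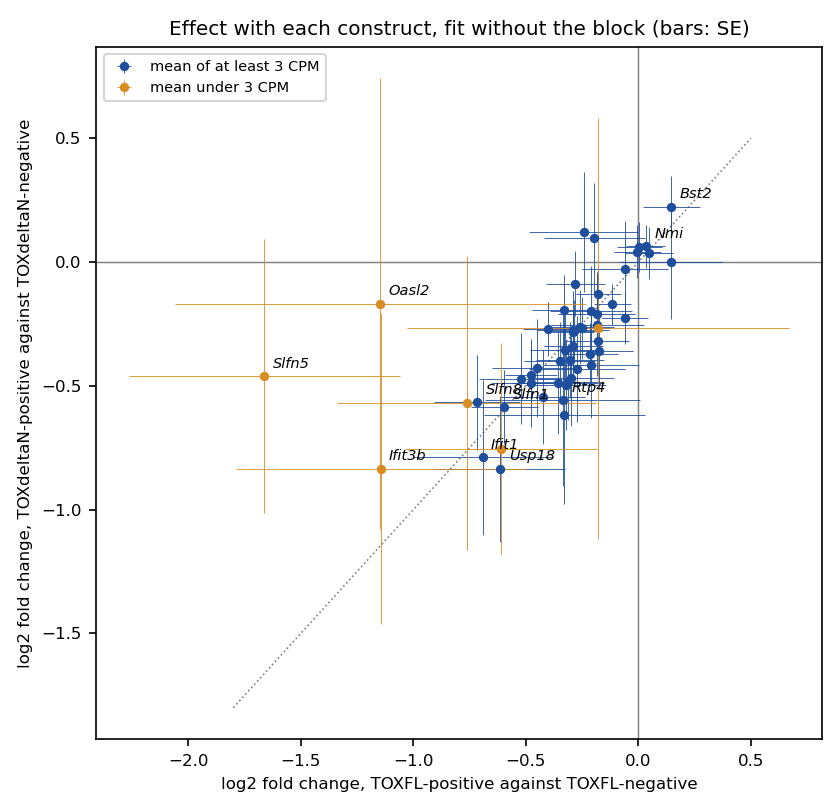
Log2 fold change of each of the 53 tested genes with TOXFL (horizontal axis) and with TOXdeltaN (vertical axis), from the fit without the block, with bars of 1 SE, and a dotted line at equal effects. Of the points, 45 lie below 0 on both axes, and the 6 genes with a mean under 3 CPM (orange) have the widest bars.

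The GFP-positive groups were also set against each other, and so were the GFP-negative ones, and 0 genes passed in either comparison in the unblocked edgeR fit (0% of all tested genes for each). DESeq2 called 18 genes between the positive and 5 between the negative groups, none of them among the 53. At an unadjusted p under 0.05, 1 of the 53 genes, Slfn5, was lower in TOXFL-positive than in TOXdeltaN-positive cells (background 3.55%), at -1.44 (SE 0.604), and 1 was higher (background 2.21%), Stat2 at 0.42 (SE 0.153). With the block, 10 of the 53 were higher in TOXFL-positive cells at an unadjusted p under 0.05 (background 4.47%), and 1, Slfn5, was lower (background 5.07%). The 10 were Stat2, Sp100, Ddx58, Ifit1bl1, Rtp4, Dtx3l and the IRG genes Iigp1, Irgm1, Tgtp1 and Tgtp2, and the IRG genes among them had values from 0.21 (SE 0.0749) for Tgtp1 to 0.29 (SE 0.0792) for Iigp1. None of the 53 passed after adjustment in that fit (edgeR smallest adjusted p = 0.4996). In the negative groups none was lower in the unblocked fit (background 0.735%), and 2, Irf7 and Stat2, were higher in the blocked fit at an unadjusted p under 0.05 (background 2.84%). The members' median was 0.0748 between positive groups and 0.0553 between negative groups.

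The members also differed by replicate number. In 32 of the 53 genes replicate 2 was below replicate 1 in all 4 groups, against 13.9% of all tested genes. The blocked fit called 11 of the 53 lower in replicate 2 (background 1.76%), among them the IRG genes Ifi47, Igtp, Iigp1, Irgm1 and Tgtp1. The step was -0.71 for Rtp4, -0.43 for Irgm1 and -0.38 for Ddx58 on the log2 scale, beside average GFP effects of -0.46, -0.31 and -0.44. Samhd1, Slfn1 and Slfn8 had steps of -0.18, -0.26 and -0.33 that did not pass. What the number marks is not stated. Within a number, the positive library lay below the negative one of the same construct in all 4 pairs for 39 of the 53 genes (background 18.9%).

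Counted without a model, both TOXFL-positive libraries lay below both TOXFL-negative ones for 33 of the 53 genes (background 25.5%). Both TOXdeltaN-positive libraries lay below both TOXdeltaN-negative ones for 28 (background 20.8%). All 4 positive libraries lay below all 4 negative ones for 17 (background 8.08%). Those 17 included the transcription factors Irf1, Irf2 and Irf9, the IRG genes Igtp, Irgm2 and Tgtp2, and Slfn1, Slfn2 and Slfn8.

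Gene length moved with the effect over the whole table, so it is given beside the members. Over all tested genes the median average effect went from 0.0709 under 1 kb of exon to -0.13 above 8 kb. Under 1 kb the median of the 2 members was 0.0679. The members' medians lay below those of all genes of their length in every bin above 1 kb, with -0.15 at 1 to 2 kb (all genes 0.0975), -0.33 at 2 to 3 kb (0.0614), -0.34 at 4 to 6 kb (-0.0147) and -0.35 above 8 kb (-0.13). With a correction for length, added after the data were seen, the members' medians were -0.28 with TOXFL and -0.345 with TOXdeltaN, and the blocked fit called 10 and 14 genes lower in place of 7 and 13.

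**Figure D5:**
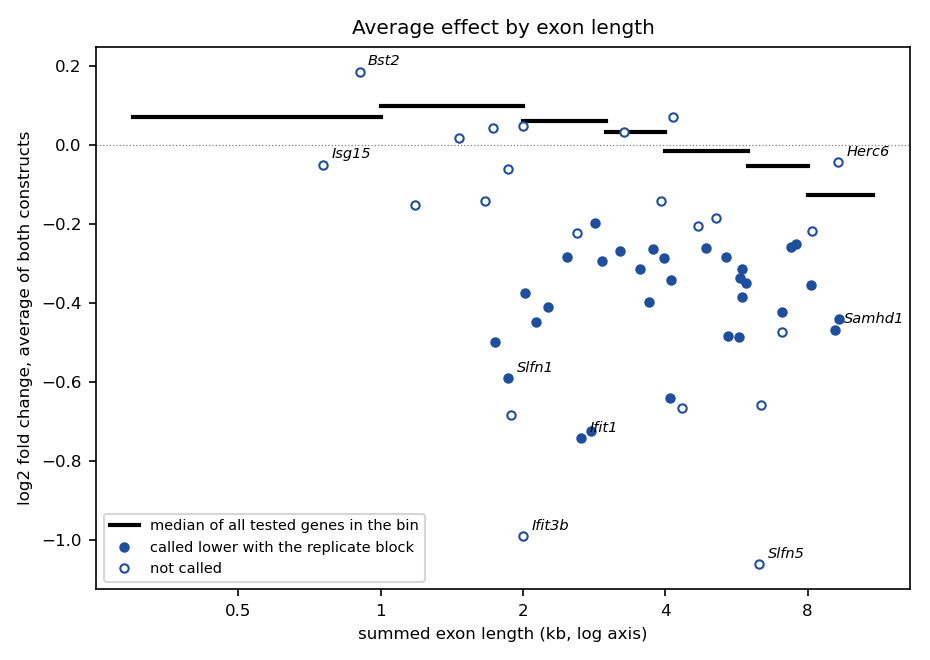
Average log2 fold change of both constructs (vertical axis) against summed exon length (horizontal log axis, kb) for the 53 tested genes, filled where the blocked fit called the gene lower. Black bars are the medians of all tested genes in each length bin, and most of the 53 genes lie below the bar of their bin, with Bst2, under 1 kb, above it.

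Grouped by promoter letters, the 15 tested genes with an ISRE alone had a median average effect of -0.42, the 8 with both elements -0.28, the 6 with a GAS alone -0.21 and the 16 with neither -0.26. The ranges overlapped, from -1.06 to -0.05 with an ISRE alone and from -0.66 to 0.07 with neither. The blocked average fit called 8 of 15, 5 of 8, 3 of 6 and 9 of 16 genes of these 4 classes lower (background 6.69%).

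Among the 8 CD8 T cell markers, Cd8b1, a chain of the CD8 coreceptor, fell by 0.35 with TOXFL in the blocked fit (adjusted p = 0.0345) and by 0.31 on average (adjusted p = 0.00611). No other of the 8 passed with either construct or on average in the unblocked or the blocked edgeR fit. Markers of other cell types were read beside these results. Of 8 plasmacytoid dendritic cell markers, Siglech and Klk1 had no count and Clec10a and Cox6a2 fewer than 10 in any library. The summed level of the list was 146 to 196 CPM in negative and 188 to 260.5 CPM in positive libraries, nearly all of it from Irf8 and from Bst2, which is itself one of the 57 genes. Ccr9, also on that list, fell by 0.70 on average in the blocked fit (adjusted p = 0.0347) and was lower in the positive library of all 4 same-number pairs, and Tcf4 had 0.07 and did not pass. The part of these markers in the results was not tested. Of 11 myeloid and dendritic markers, Adgre1 had no count and the sum was 4.55 to 7.11 CPM in negative and 4.196 to 7.66 CPM in positive libraries. Of 6 B cell markers, Pax5 had no count, and the sum was 16.4 to 17.5 CPM in negative and 13.99 to 16.4 CPM in positive libraries. The 6 CD4 T and NK cell markers summed to 7.64 to 13.5 CPM in negative and 5.08 to 11.96 CPM in positive libraries. The mitochondrial share of counts was 0.832 to 0.909% in negative and 0.450 to 0.7975% in positive libraries, and its part in the results was not tested.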

How the data were processed

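RNA of sorted OT-I CD8 T cells was measured by bulk RNA-seq in 8 libraries, made with SMART-Seq v4 and Nextera XT kits per the labels' protocols, which do not mark strand. Reads were handled with bcl2fastq 2.20, cutadapt, STAR 2.6.1 and RSEM 1.2.28 on GRCm38, per the submitters' processing notes. The authors deposited RSEM expected counts (estimated counts) per gene as whole numbers, used here as counts. The 92 ERCC rows held 0 counts and were left out.

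Genes were filtered with filterByExpr by group, scaled by TMM and tested with edgeR 4.0.16 (quasi-likelihood F-test, R 4.3.3) in 1 fit of the 4 group means, with Benjamini-Hochberg adjustment over the 13329 genes tested and a threshold of 0.05. CPM use TMM library sizes, and log2 fold changes are positive minus negative. Libraries of the same number correlated in their deviations from the group means by 0.168 to 0.241 in all 6 pairs of groups, over all tested genes, so the numbers were taken to pair the libraries and a blocked fit, with a term for the number, is given beside results it changed. It lowered the biological coefficient of variation from 0.132 to 0.0958. Alternatives were DESeq2 1.42.0, RLE factors, no filter, fits of only the groups compared, the block, a length correction (added) and leaving out each library. The script was tested on simulated data. Gene coordinates are from GENCODE M21 and promoter sequences from RefSeq GRCm38.p6.

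The genes, their roles and the pathway and marker lists were chosen with earlier results of these data known. Library values are given for genes called in any comparison in either fit, the 3 most abundant tested genes of each role and the 5 largest fold changes of each construct and of their difference. Pathway genes are named where called.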

Additional observations from a re-analysis of the deposited data

How the results depend on the processing

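The number of genes passing the threshold depended strongly on the fit, while no called value changed sign under any alternative run. The 2 libraries per group limit precision, and Ifit3b, Slfn5, Oasl1, Oasl2, Rsad2 and Oas1a, all under 3 CPM, are also limited by depth. Counts of the interferon-stimulated genes called are given first, and counts over all genes tested, in either direction, after them. With TOXFL the 0 genes became 8 with no filter on low counts, 3 with DESeq2, 7 with the replicate block and 10 with the block and a length correction. For TOXdeltaN the 0 became 16, 2, 13 and 14 in the same order, and for the average the 3 became 30, 20, 31 and 31. Over all genes, TOXFL gave 6 in the unblocked edgeR fit, then 678, 308, 464 and 561, and 2 in a fit of only the groups compared. TOXdeltaN gave 4, then 516, 115, 220, 278 and 0 in that same series, and the average gave 323, then 1665, 1031, 1697 and 1602. The difference of the effects gave 0 genes, 45 with no filter and 5 with DESeq2. The positive groups gave 0, then 116, 18, 1 and 1, and 1 in a fit of only these groups. The negative groups gave 0, then 37 and 5. None of the interferon-stimulated genes was among the calls of these last 3 comparisons in any of those fits. RLE factors and the length correction without the block moved no count by over 1.5 times. The cause of these shifts was not tested.

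Leaving out single libraries gave the following ranges. Without the block, the interferon-stimulated genes called ranged from 0 to 18 with TOXdeltaN, from 0 to 28 on average and from 0 to 3 between the positive groups, and stayed at 0 with TOXFL. With the block they ranged from 0 to 28 with TOXFL, from 0 to 30 with TOXdeltaN, from 8 to 35 on average, from 0 to 13 between the positive groups and from 0 to 2 for the difference. Over all genes without the block, the ranges were 0 to 122 with TOXFL, 0 to 1571 with TOXdeltaN, 5 to 2504 on average, 0 to 704 between the positive groups, and 0 to 1 both between the negative groups and for the difference. With the block they were 30 to 1772 with TOXFL, 0 to 2650 with TOXdeltaN, 312 to 3681 on average, 0 to 1934 between the positive groups, 0 to 8 between the negative groups and 0 to 449 for the difference. In such fits the lone library of a group is assumed to vary like the other groups. Leaving out TOXdeltaN-positive 1 gave the highest counts over all genes with both constructs and on average, with and without the block.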
